A study of Homo sapiens with 12 samples.

Results

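Among the transcripts counted in 80S ribosome fractions of HEK293 cells, 10 from genes encoded in the mitochondrial genome were followed. They were chosen by identifier, from a list that names 10 of the 57820 genes, with no threshold on a measured value. RefSeq lists 37 genes on the mitochondrial chromosome, and those outside the 10 were not analysed as part of the set. Complex I of the respiratory chain contributes MT-ND1 (ENSG00000198888.2), MT-ND2 (ENSG00000198763.3), MT-ND4 (ENSG00000198886.2) and MT-ND5 (ENSG00000198786.2), and complex III contributes MT-CYB (ENSG00000198727.2). Complex IV contributes MT-CO1 (ENSG00000198804.2), MT-CO2 (ENSG00000198712.1) and MT-CO3 (ENSG00000198938.2), and the ATP synthase MT-ATP6 (ENSG00000198899.2). MT-RNR2 (ENSG00000210082.2) is the large ribosomal RNA of mitochondria. The identifiers are those of the count tables, which hold no coordinates, and RefSeq places all 10 genes on the mitochondrial chromosome. All 10 passed the filter on low counts, with 2271 to 16908 counts per library, and they ranked between 7 and 91 of all genes by mean level.

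Mitochondria transcribe their compact circular genome as long precursors, which are cut at interspersed tRNAs into single RNAs, and most of these receive short poly(A) tails. The mRNAs are translated inside the organelle by mitochondrial ribosomes, whose subunits differ in size and protein make-up from those of cytosolic 80S ribosomes. The proteins made are core subunits of the respiratory chain and of the ATP synthase. RPL12 (uL11) is a protein of the cytosolic large subunit and sits at the base of the stalk that binds elongation factors. On that ground the set was defined as a background class for RPL12 recovery. In these libraries its RNA was more abundant in IP than in input, relative to most other genes, as the values below show.

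The study asked which RNAs are recovered with RPL12 and whether this depends on a serine of RPL12 that can be phosphorylated. HEK293 is an established human embryonic kidney line with an epithelial label, and its Flp-In T-REx derivative carries a single landing site for a transgene. Stable lines overexpressed FLAG/HA-tagged RPL12 with that serine changed to aspartate (S38D), changed to alanine (S38A), or left in place (WT), after hygromycin selection and outgrowth of monoclonal colonies. Each line gave 2 anti-FLAG immunoprecipitates (IP) from pooled, cycloheximide-treated 80S gradient fractions, and 2 inputs taken as aliquots of the same fractions, 12 libraries of polyadenylated RNA in all. The labels name no drug arrest and no removal of untagged RPL12, and RPL12 form and line coincide, so their effects cannot be told apart. They do not state that the replicates were separate cultures, and p-values then describe the spread between these libraries alone, which may be technical. An IP from cells without the tag is not among the libraries, so RNA held by the beads and RNA held by tagged RPL12 cannot be told apart.

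IP libraries held 3186164 to 7430881 gene counts and inputs 7434431 to 8723130. Synthetic ERCC spike-in RNA took 1.44% to 5.43% of IP counts and 0.116% to 0.484% of input counts. Depth and spike-in share thus moved with the IP, and their part in the results below was not tested. The highest counting error of any member in any library was 2.10% (coefficient of variation). In the scaled levels used below, most replicate pairs spread by more than that. Exceptions were MT-CYB and MT-ND5 in the S38A inputs and MT-RNR2 in the WT IP libraries. The files pair no identifier with a name, so markers of HEK293 or of other cell types were not analysed here. Nuclear copies of mitochondrial sequence exist in the human genome, and how reads matching several places were counted is not given, which makes the absolute counts of all 10 genes uncertain.

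Together the 10 mitochondrially encoded genes took a larger share of gene counts in IP than in the input of the same fraction in 6 of 6 fractions. The 10 genes held 1.58% and 1.92% of gene counts in the S38D IP libraries, 1.40% and 1.18% in the S38A ones, and 1.48% and 1.97% in the WT ones. In the inputs of the same fractions they held 0.964% and 1.22% in S38D, 0.945% and 0.862% in S38A, and 1.16% and 1.46% in WT. The mean was 1.59% ± 0.303 in IP and 1.10% ± 0.223 in input (SD, n = 6 each), and the ranges of IP and input overlapped, because the second WT input exceeded both S38A IP libraries. The IP to input ratio of the share was 1.64 and 1.57 in the S38D fractions, 1.48 and 1.37 in the S38A fractions, and 1.28 and 1.35 in the WT fractions. The ratio of geometric means was 1.44 with an SD of 0.139 over the 6 fractions, so each single fraction lay above equality by more than that spread. Exact 95% Clopper-Pearson intervals were narrow beside these differences, for example 1.57% to 1.59% in the first S38D IP library and 0.957% to 0.971% in its input. They cover counting error only.

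**Figure D1:**
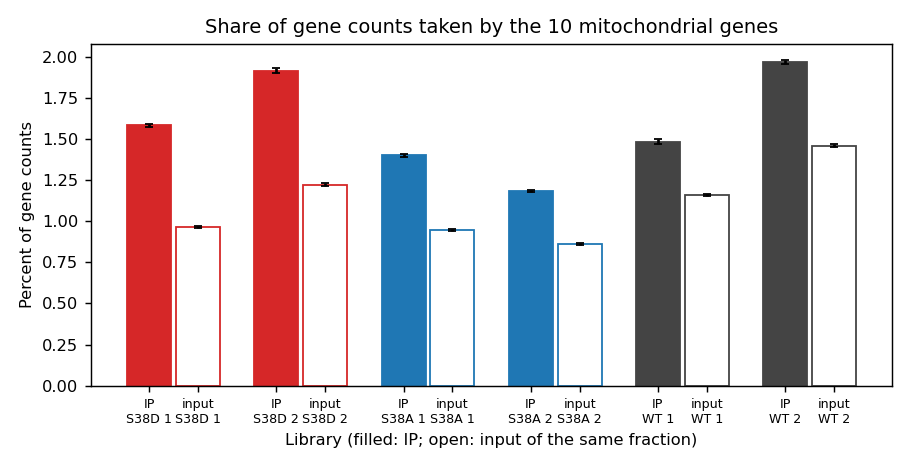
Percent of gene counts taken by the 10 mitochondrially encoded genes (y axis) in each library (x axis), with IP as filled bars and the input of the same fraction as open bars to its right; whiskers are 95% Clopper-Pearson intervals. The filled bar is the taller one in 6 of 6 fractions, and the fractions differ from each other, from 1.18% in the second S38A IP to 1.97% in the second WT IP.

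The next comparison asked whether each gene was higher in IP than in input over the 3 lines. All 10 rose, by 1.38-fold to 2.26-fold, after scaling by the trimmed mean of M values (TMM), which sets the bulk of genes to no change. The test was edgeR's quasi-likelihood test on counts in 1 fit of the 12 libraries, and a gene was called at a Benjamini-Hochberg adjusted p under 0.05 over 16920 genes. In that fit 15.9% of all genes were called higher. The median log2 change of the 10 was 0.75, against -0.04 for all genes, which placed it at percentile 94.8 of all genes. Abundant genes were more often higher in IP. Of the 846 genes in the top 5% by mean level, 61.2% were called higher with a median log2 change of 0.42, and the median of the 10 lay at percentile 82.2 of these. Calls were thus frequent among abundant genes, and the part of abundance in the members' rise was not tested.

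In complex I, the proton-pumping NADH dehydrogenase, MT-ND1 stood apart. This gene encodes a membrane subunit near the quinone site. Its TMM-scaled level was 1019.9 and 1333 CPM (counts scaled to a common library size) in the S38D IP libraries, 757 and 565 in the S38A ones and 1475 and 1286 in the WT ones. In the inputs it was 399 and 515 CPM in S38D, 373 and 306 in S38A and 512 and 681 in WT. Only the second S38A IP library fell inside the range of the inputs, below the second WT input. MT-ND1 rose by 1.18 on the log2 scale (SE 0.13, edgeR adjusted p = 0.00016), which is 2.26-fold and percentile 98.9 of all genes.

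MT-ND2 and MT-ND4, membrane subunits of the proton-pumping arm, and MT-ND5, its outermost member, rose less. MT-ND2 averaged 906 ± 222 CPM in IP and 539 ± 130 in input (SD, n = 6 each), a log2 change of 0.74 (SE 0.14). MT-ND4 averaged 2175 ± 481 CPM in IP and 1342 ± 308 in input, a log2 change of 0.70 (SE 0.14). MT-ND5 changed least of the 10, with levels of 1010.0 and 1323 CPM in the S38D IP libraries, 910.2 and 796 in the S38A ones and 1006 and 1123 in the WT ones. Its inputs had 645 and 819 CPM in S38D, 674 and 684 in S38A and 708 and 902 in WT. The second S38A IP library again lay within the inputs, and the other 5 lay above all of them. The log2 change of MT-ND5 was 0.47 (SE 0.12, edgeR adjusted p = 0.0097).

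MT-CYB, the cytochrome b of complex III and its only mitochondrially encoded subunit, had the second-highest change. It measured 1941 and 2535 CPM in the S38D IP libraries, 1638 and 1470.5 in the S38A ones and 1824 and 2497 in the WT ones. Its inputs measured 953 and 1240.3 CPM in S38D, 909.6 and 918 in S38A and 1089 and 1529 in WT. The first S38A and all S38D and WT IP libraries lay above every input, while the second S38A IP lay below the second WT input. The log2 change was 0.84 (SE 0.14, edgeR adjusted p = 0.00091).

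The 3 catalytic core subunits of complex IV, cytochrome c oxidase, changed by similar amounts. MT-CO1, which binds the haems of the oxygen-reducing centre, averaged 2676 ± 557 CPM in IP and 1704 ± 318 in input (SD, n = 6 each), a log2 change of 0.65 (SE 0.14). MT-CO2, which takes electrons from cytochrome c, averaged 2160.0 ± 664 CPM in IP and 1273 ± 367 in input, a log2 change of 0.75 (SE 0.15). MT-CO3, a structural core subunit, averaged 2197 ± 545 CPM in IP and 1304 ± 306 in input, a log2 change of 0.75 (SE 0.13). Their differences from each other were smaller than 1 SE. Each SE is that of the gene's own change and does not measure the error of a difference between genes. For MT-CO2 and MT-CO3 both S38A IP libraries lay within the range of the inputs.

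MT-ATP6, the subunit a that forms the proton path of the ATP synthase, averaged 1268 ± 319 CPM in IP and 741 ± 192 in input (SD, n = 6 each), a log2 change of 0.77 (SE 0.14, edgeR adjusted p = 0.0014). MT-RNR2, the 16S rRNA of the mitochondrial large subunit and the only member that encodes no respiratory protein, reached 1701 and 2073 CPM in the S38D IP libraries. It had 1569 and 1115 in the S38A IP ones and 2401 and 2339 in the WT IP ones. The inputs had 899.7 and 1074 CPM in S38D, 912 and 723 in S38A and 1261 and 1646 in WT. The 2 S38A IP libraries lay below the second WT input and the other 4 above all inputs. MT-RNR2 changed by 0.79 (SE 0.13, edgeR adjusted p = 0.0010), close to the median of the 10.

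Across the 10 genes, IP exceeded input in every one of the 6 fractions, a pattern that 20.3% of all genes showed. The 10 moved together over the libraries, so counts of members, here and below, are not counts of independent results. For no member did all 6 IP libraries lie above all 6 inputs, which held for 6.15% of all genes. Single IP libraries did so, 5 of 6 for most members and 4 of 6 for MT-CO2, MT-CO3 and MT-RNR2. When libraries were scaled on total gene counts in place of TMM, all genes had a median of -0.25 and the 10 one of 0.53. Under that scaling 9 of the 10 were called higher, against 7.67% of all genes, and MT-ND5 was not (log2 change 0.25, edgeR adjusted p = 0.083). The other 9 kept their direction and call.

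**Figure D2:**
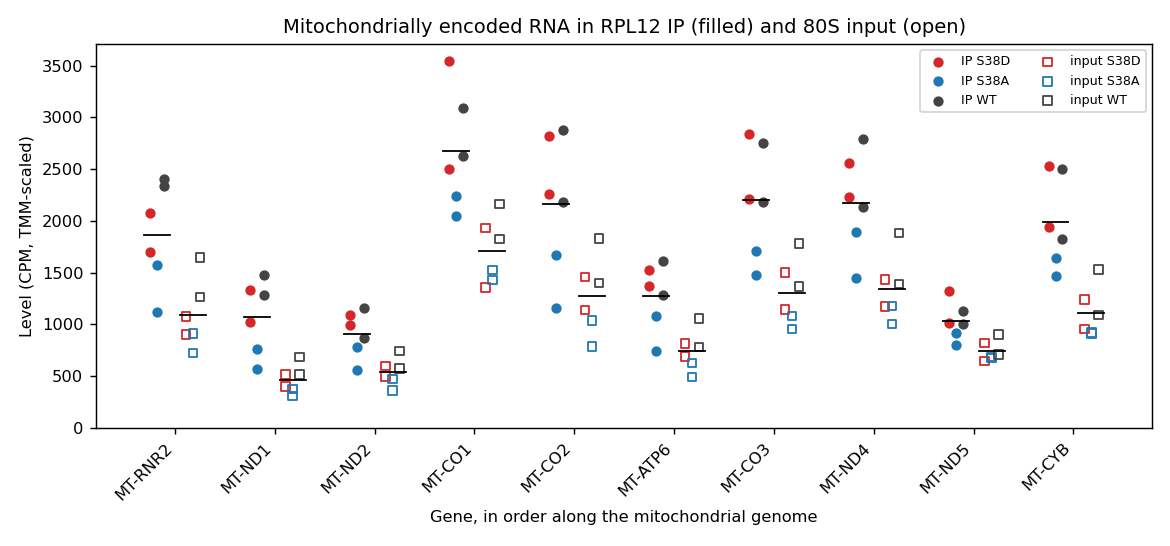
TMM-scaled level in CPM (y axis) of each of the 10 genes (x axis, in their order along the mitochondrial genome), with IP libraries as filled circles on the left and inputs as open squares on the right, coloured by line; black bars are means over 6 libraries. IP means exceed input means for each gene, for example 1073 against 464 CPM for MT-ND1, while single IP and input libraries overlap, and heights are not corrected for transcript length and so do not rank the genes.

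The change was then taken in each line alone, where each side has 2 libraries. In S38D, 6 of the 10 were called higher, against 3.13% of all genes and 22.1% of genes in the top 5% by mean level. These were MT-ND1 (log2 change 1.36, SE 0.23, edgeR adjusted p = 0.021), MT-CYB (1.03, SE 0.24), MT-ATP6 (0.95, SE 0.24), MT-CO3 (0.94, SE 0.23), MT-RNR2 (0.93, SE 0.23) and MT-ND2 (0.93, SE 0.23). MT-ND4 (0.88), MT-CO1 (0.88) and MT-CO2 (0.97) missed the threshold narrowly, at edgeR adjusted p between 0.0502 and 0.0509, and MT-ND5 had 0.67 at adjusted p = 0.075. With the fraction as a replicate block all 10 passed, against 10.7% of all genes. With total counts 1 passed, against 1.43%. Without any one of the S38D libraries 0 members passed, against 0% of all genes, or 0.0228% without the first S38D IP. Without the first or second WT input 2 passed, against 1.5% and 1.46% of all genes, and without the second WT IP library 10 did, against 6.58%.

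In S38A no member and no other gene was called (0% of all genes), although 9 of the 10 had an unadjusted p under 0.05 in edgeR, as did 7.39% of all genes in that direction. The log2 changes had a median of 0.66 and ran between 0.33 for MT-ND5 and 0.96 for MT-ND1 (SE 0.23, edgeR adjusted p = 0.14). DESeq2 called 4 of the 10 (1.39% of all genes higher), and voom, here and below with sample quality weights, called 0. A fit in edgeR with each fraction as a block called 9, all but MT-ND5, against 5.92% of all genes. In WT, MT-ND1 alone was called, at 1.21 (SE 0.23, edgeR adjusted p = 0.011). There 5.77% of all genes were called higher, and 28.6% of those in the top 5% by mean level. The other 9 members had log2 changes between 0.40 and 0.72. Of these, 8 had an unadjusted p under 0.05 in edgeR, as did 13.5% of all genes in that direction. The call of MT-ND1 in WT was lost without the first or second WT input (edgeR adjusted p = 0.082 and 0.083) and without the first WT IP library (0.0525). With the block all 10 passed in WT, against 14% of all genes. In the main fit, the median of the 10 was also placed among the genes in the top 5% by mean level. It lay at percentile 85.6 in S38D, 91.5 in S38A and 66.4 in WT. The part of abundance in each line was not tested.

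Within each line, both IP libraries of all 10 genes lay above both inputs. This held for 25.7% of all genes in S38D, 24.7% in S38A and 24% in WT. The overlap over all 12 libraries thus lay between libraries of different lines.

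**Figure D3:**
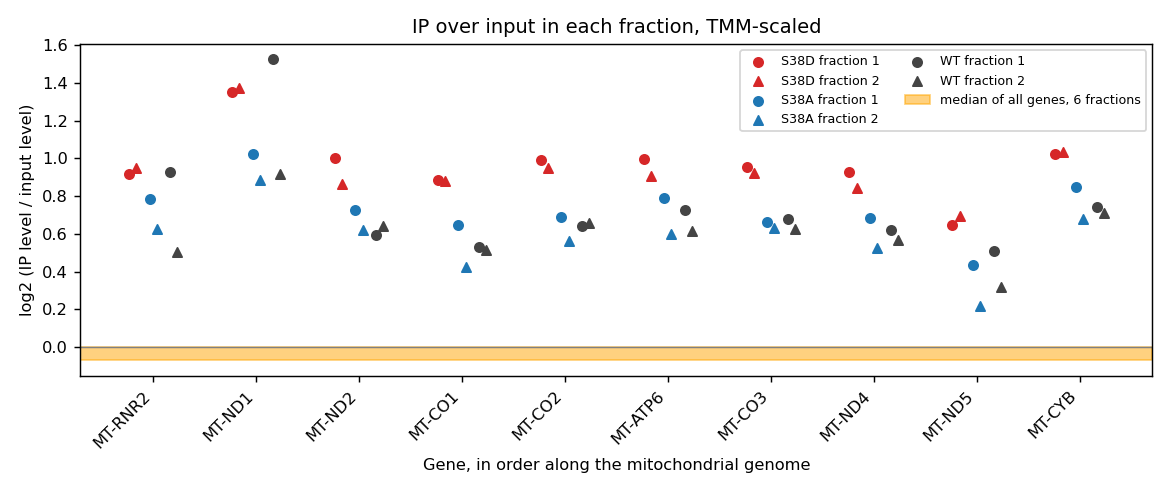
Log2 ratio of the IP level to the input level (y axis, TMM-scaled) of each gene (x axis) in each of the 6 fractions, coloured by line and shaped by replicate; the orange band spans the medians of all genes in the 6 fractions. All points lie above the band, from 0.22 for MT-ND5 in the second S38A fraction to 1.53 for MT-ND1 in the first WT fraction.

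Whether the RPL12 form altered this recovery was tested with interaction contrasts. The median log2 IP to input ratio of the 10 was 0.97 and 0.91 in the S38D fractions, 0.71 and 0.61 in the S38A fractions, and 0.66 and 0.62 in the WT fractions. The S38D fractions thus had the highest medians. The difference from WT was 0.29 (median of the 10, each SE 0.29 to 0.36) for S38D and 0.01 (each SE 0.29 to 0.36) for S38A, and the difference of S38D from S38A was 0.28. For all genes these medians were 0.02, 0.05 and -0.02, in the same order. For the 846 genes in the top 5% by mean level they were 0.05, -0.12 and 0.20. The medians of the 10 lay at percentiles 94.9, 76.0 and 65.5 of these abundant genes. The part of abundance in these differences was not tested. With total counts the difference from WT was 0.28 for S38D and 0.15 for S38A, where all genes had 0.02 and 0.20. The difference of S38D from S38A was then 0.14, where all genes had -0.16. The nearness of S38A to WT thus depended on the scaling. On omitting single libraries the members ran between -0.065 (MT-ND1) and 0.64 (MT-CO1) for S38D against WT. For S38D against S38A they ran between -0.011 (MT-ATP6) and 0.64 (MT-ND1). Omission of 1 library leaves the other library of its fraction unpaired, so these ranges can also hold shifts shared within a fraction. No member was called in any of the 3 contrasts, nor was any other gene (0% each), and no member had an unadjusted p under 0.05 in edgeR, as 0.792% of all genes did for S38D against WT, 2.32% for S38A against WT and 0.644% for S38D against S38A. DESeq2, voom and edgeR with each fraction as a block also called 0 members. The errors and unadjusted p-values given are from the fit of group means, which does not pair IP and input by fraction. With such errors these contrasts could miss a change of the size seen. A p above the threshold does not show that the lines act alike.

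MT-ND1 had the highest value of the 10 for S38D against S38A, at 0.40 (SE 0.33), and the lowest for S38A against WT, at -0.25 (SE 0.33). The last value rests in part on the first WT fraction, where the log2 ratio of MT-ND1 was 1.53 against 0.92 in the second. The other 9 genes lay between -0.07 and 0.06 for S38A against WT, and between 0.22 and 0.34 for S38D against S38A. Contrasts with the same line share its libraries, so they are not independent.

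The balance among the 10 genes was compared next, since a shift shared by all 10 cancels in the share of each gene within their sum. Shares are tied to each other, so a higher share of some genes lowers those of the rest. MT-ND1 made up 6.09% ± 1.13 of the 10-gene counts in IP and 4.46% ± 0.305 in input (SD, n = 6 each). Its share was 5.92% and 6.16% in the S38D IP libraries, 5.32% and 4.97% in the S38A ones and 8.21% and 5.97% in the WT ones. In the inputs its share was 4.49% and 4.53% in S38D, 4.30% and 3.95% in S38A and 4.70% and 4.79% in WT. Every IP library lay above every input. Against the same sum 0.0887% of all genes lay wholly above in IP and 18% wholly below, shares that the rise of the sum itself sets and from which nothing is read. MT-ND5 moved the other way, with 6.03% ± 0.628 in IP and 7.32% ± 0.909 in input, lower in IP in 6 of 6 fractions, although single IP and input libraries overlapped.

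The remaining genes kept nearly the same proportions. MT-CYB had a higher share in IP in 6 of 6 fractions by a mean log2 ratio of 0.09 ± 0.04, and MT-ND4 and MT-CO1 a lower one in 6 of 6, by -0.05 ± 0.04 and -0.10 ± 0.05 (SD, n = 6). For MT-ND2, MT-CO2, MT-CO3, MT-ATP6 and MT-RNR2 the fractions disagreed in direction. An edgeR fit scaled on the summed counts of the 10 genes gave the same differences with errors. It was added after the shares had been seen and uses the same libraries, so it restates them and its p-values are not given. The log2 change in it was 0.44 (SE 0.12) for MT-ND1 and -0.28 (SE 0.11) for MT-ND5, and the other 8 lay between -0.10 and 0.09. On omitting single libraries MT-ND1 had 0.36 to 0.51 and MT-ND5 -0.31 to -0.24.

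In the same fit, relative to the 10 mitochondrial genes, 0.546% of 16850 genes were called higher in IP and 72.4% lower, with an all-gene median of -0.79. A positive change relative to these 10 was found for 4.90% of all genes. The scaling alone sets the level of zero here, so this restates the rise of the 10 against all other genes.

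The first WT IP library, which had the lowest gene count and the highest spike-in share of the 12, also had an unusual balance. There MT-ND1 made up 8.21% of the 10-gene counts, against 4.97% to 6.16% in the other 5 IP libraries, and MT-RNR2 made up 13.4%, against 9.58% to 11.02%. MT-CYB made up 10.1%, against 11.3% to 12.9%, and MT-ND2 4.80%, against 4.87% to 5.77%. The other 6 genes lay within the range of the other IP libraries. The input of the same fraction showed no such values for MT-ND1 and MT-RNR2 (4.70% and 11.6%), while MT-CYB was lowest among the inputs there too, against 10.5% to 11.9% in the other 5. In the other 5 fractions the log2 ratio of the MT-ND1 share was 0.31 to 0.44.

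**Figure D4:**
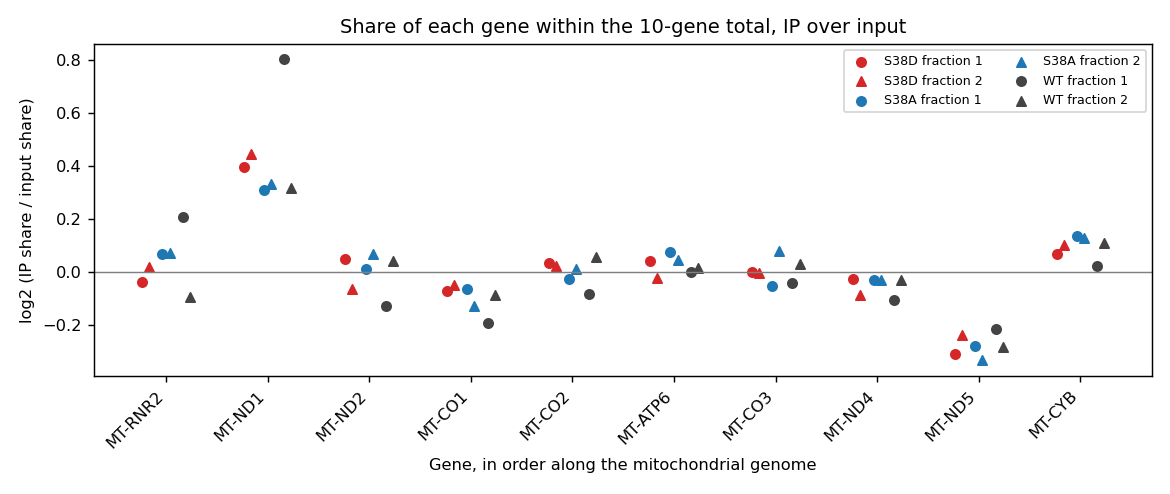
Log2 ratio of the share of each gene in the 10-gene sum, IP over input (y axis), by gene (x axis) and fraction, coloured by line and shaped by replicate. MT-ND1 is above 0 in 6 of 6 fractions, from 0.31 to 0.80, and MT-ND5 below 0 in 6 of 6, from -0.33 to -0.21, while the other genes lie between -0.19 and 0.21, both in the first WT fraction.

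A further question was whether the 80S fractions of the lines already differed in RNA of the 10 genes before the IP. This was a fit of the 6 inputs with 16728 genes. Levels are relative to the other RNA of a library, so less mitochondrial RNA and more of other RNA cannot be told apart. No member was called between S38A and WT inputs, nor was any other gene (0%). All 10 were lower in S38A in value, with a median log2 difference of -0.62 against -0.02 for all genes, and 8 had an unadjusted p under 0.05 in edgeR, as did 6.48% of all genes in that direction. The lowest values were -0.81 for MT-RNR2 and MT-CO2 (SE 0.20 and 0.22) and -0.79 for MT-ND1 (SE 0.19), with edgeR adjusted p of 0.17 to 0.18. MT-ND5 had the smallest difference, -0.22 (SE 0.18). On omitting single inputs MT-RNR2 ran between -0.99 and -0.62, MT-CO2 between -1.02 and -0.62 and MT-ND1 between -0.97 and -0.59. Omitting the first WT input gave -0.38 for MT-ND5 and -0.71 for MT-CYB, and omitting the second gave -0.06 and -0.25, against -0.50 (SE 0.21) for MT-CYB with both kept.

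In the scaling of that fit MT-RNR2 had 988 and 783 CPM in S38A inputs, 979 and 1157 in S38D inputs and 1355 and 1749 in WT inputs. MT-CO2 had 1122 and 849 CPM in S38A inputs, 1236 and 1570.2 in S38D inputs and 1505 and 1942 in WT inputs. Both S38A inputs lay below both WT inputs for all 10 genes, as they did for 23.8% of all genes. The 10 moved together over the inputs, so they do not count as 10 separate results. DESeq2 called 7 of the 10 lower in S38A (0.783% of all genes) and edgeR with no filter on low counts 8 (1.11%). Without the first S38A input edgeR called 2, MT-CO2 and MT-RNR2 (adjusted p = 0.0497 and 0.045), against 1.12% of all genes.

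Between S38D and WT inputs no member passed (0.00598% of all genes called), and the 10 had log2 differences of -0.54 to -0.12 with a median of -0.26. MT-RNR2 was the gene with -0.54 (SE 0.20) and the only member for which both S38D inputs lay below both WT inputs, against 15.8% of all genes. Between S38D and S38A inputs no member passed either (0.00598% called), and the 10 had differences of 0.11 to 0.51 with a median of 0.32. Both S38D inputs lay above both S38A inputs for 7 members, against 16.5% of all genes, and MT-ND5, MT-CO1 and MT-RNR2 overlapped. These 3 input comparisons share groups, so the 3 medians are not independent.

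Spike-in scaling of the inputs, where equal amounts of RNA and of ERCC mix were combined, gave other values. The counts of the 10 genes per ERCC count were 2.74 and 3.70 in S38D inputs, 2.76 and 4.07 in S38A inputs, and 9.96 and 3.00 in WT inputs. The first WT input stood far from the other 5. Under that scaling the median log2 difference of the 10 was -0.98 for S38A against WT, -0.99 for S38D against WT and -0.05 for S38D against S38A, where all genes had -0.43, -0.83 and -0.41, and no member was called.

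**Figure D5:**
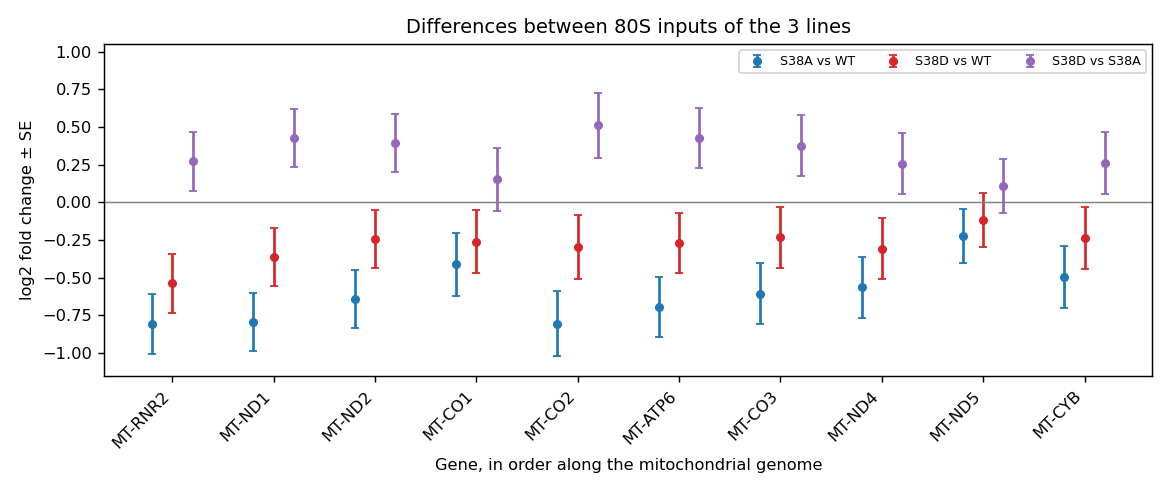
Log2 fold change between inputs of the lines (y axis) for each gene (x axis), from the fit of the 6 inputs; points are estimates and whiskers 1 SE. All 10 genes lie below 0 for S38A against WT and for S38D against WT and above 0 for S38D against S38A, and none passed an adjusted p of 0.05.

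The 10 genes moved together over the 12 libraries. Pearson correlations of log2 CPM in the 45 pairs ran from 0.890 to 0.998 with a median of 0.962. The libraries share depth, line and the step between IP and input, so these values describe the set and are given without a test. Within the 6 inputs alone they ran from 0.780 to 0.998, and within the 6 IP libraries from 0.753 to 0.993. Replicates differed in the same way for many members at once. In the S38D IP pair all 10 were higher in the second library (median log2 difference 0.34), in the S38A IP pair all 10 were lower there (-0.41), and in the WT IP pair 8 of 10 were higher (0.33). In the input pairs 10 of 10 were higher in the second library of S38D (0.35), 3 of 10 in that of S38A (-0.26) and 10 of 10 in that of WT (0.38). The median of all genes moved by at most 0.035 in these pairs, where TMM itself sets the bulk of genes to no change.

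Genes outside the set with the most similar pattern were sought among 13094 with a mean of at least 5 CPM, by the correlation of log2 CPM with the mean of the 10 over 12 libraries. ENSG00000196262.9 had r = 0.988 and ENSG00000168028.9 r = 0.987. Next came ENSG00000111906.13 and ENSG00000156467.5, each with r = 0.982, and ENSG00000186468.8 with r = 0.981. The files give no names for them. In IP against input over the 3 lines their log2 changes, in that order, were 0.39 (SE 0.10), 0.74 (SE 0.12), 0.49 (SE 0.10), 0.42 (SE 0.10) and 0.63 (SE 0.13). The median of the 10 was 0.75.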

How the data were processed

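RNA was measured in 12 libraries of HEK293 lines, IP and input of 80S fractions, 2 per line and kind. The authors deposited raw read counts as 1 table per library, with 57820 genes beside 92 ERCC sequences. Demultiplexing and alignment used bcl2fastq 2.16.0.10 and STAR 2.4.2a on hg19, and DESeq2 is also listed, all per the submitters' processing notes. The sources used here do not give the read counter, its annotation, or how strand and multiple hits were treated, so overlapping and near-identical genes are uncertain.

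The members and all lists were chosen with earlier results of these data known, and all 10 members are named. Other lists and markers had been written by symbol and could not be used, as 0 of 59792 genes in the RefSeq table (GRCh38.p14) carry an Ensembl identifier. The names of the 10 come from the rule for the set, and all 10 matched mitochondrial genes of that table by synonym, which gave their order. The genes of most similar pattern were to leave out other mitochondrial genes and nuclear copies, which could not be applied without names.

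The main test was edgeR 4.0.16 in R 4.3.3 on the counts, with filterByExpr at a minimum count of 10, TMM, glmQLFit and glmQLFTest, Benjamini-Hochberg adjustment over all genes tested, and calls at adjusted p under 0.05. One fit held all 12 libraries (biological coefficient of variation 17.4%) and one the 6 inputs (15.7%), with ERCC counts left out. A standard error is the log2 change divided by the square root of F. Per-fraction log2 ratios used a prior count of 2. Shares have no test.

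The protocol takes IP and input of one number from one fraction. Across genes, their deviations correlated at 0.54 in S38D, 0.64 in S38A and 0.28 in WT, so the numbers pair the libraries. The main fit did not use this pairing, and the replicate block did. Replicates differed by more than sampling noise, with chi-square over its degrees of freedom between 5.39 and 16.0. The alternatives tried were RLE size factors, total counts and scaling without the counts of the 10 members. DESeq2 1.42.0 and voom with sample quality weights in limma 3.58.1 were run in place of edgeR. Further ones were no filter, a mean of at least 10 CPM, the replicate block and only the groups compared. Inputs were also scaled on ERCC counts, and each library was omitted in turn. The scaling on the summed members was added after seeing the data. The fits were tested on simulated counts.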

Additional observations from a re-analysis of the deposited data

How the results depend on the processing

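Over the 3 lines, 10 of 10 members were called in every alternative except total counts (9), and the share ratio of 1.44 stayed between 1.38 and 1.53 with 1 library left out. Of all single-gene values recomputed, 1722 kept direction and side of the threshold, 97 newly passed, 51 no longer did and 66 turned direction. The cause was not tested. Omission of 1 library leaves the other library of its fraction unpaired, so values so obtained can also hold shifts shared within a fraction. In S38D, 6 calls became 1 with total counts (1.43% of all genes called higher), 10 with DESeq2 (7.03%), voom (7.17%), no filter (2.8%) or the replicate block (10.7%), and 0 to 10 on omitting single libraries. S38A, with 0, had 4 with DESeq2 (1.39%), 7 with no filter (0.701%) and 9 with the replicate block (5.92%). WT, with 1, had 8 with DESeq2 (9.29%) or no filter (3.7%), 10 with the replicate block (14%), 0 in a fit of its own libraries (0%), and 0 to 2 on omitting single libraries. For S38A against WT inputs, 0 became 7 with DESeq2 (0.783% called lower), 8 with no filter (1.11%) and 0 to 2 on omitting single libraries. Relative to the 10-gene sum, where the fit restates the shares, 2 genes under the threshold became 1 to 2 on omitting single libraries, and the replicate block changed neither. The block changed no call of a member over the 3 lines or between lines. No value that turned direction had been called. For S38A against WT in IP over input, MT-ND4, MT-CO1 and MT-RNR2 were -0.0081, -0.014 and -0.020 with RLE and likewise with DESeq2 (-0.0081, -0.014 and -0.020). MT-ND5, MT-CO2 and MT-CO3 were 0.063, 0.12 and 0.13 with total counts. MT-CO2, MT-CO3 and MT-RNR2 were 0.011, 0.019 and -0.0094 with voom, MT-CO2 and MT-CO3 0.029 and 0.038 with no filter, and MT-RNR2 -0.013 with the replicate block. On omitting single libraries the ranges there were -0.24 to 0.29 for MT-ND2, -0.22 to 0.23 for MT-ND4, -0.26 to 0.091 for MT-ND5, -0.15 to 0.14 for MT-CO1, -0.33 to 0.23 for MT-CO2, -0.22 to 0.18 for MT-CO3, -0.29 to 0.30 for MT-ATP6, -0.22 to 0.29 for MT-CYB and -0.29 to 0.24 for MT-RNR2. In IP over input they were -0.065 to 0.35 for MT-ND1 in S38D against WT, and -0.011 to 0.55 for MT-ATP6 and -0.0082 to 0.50 for MT-RNR2 in S38D against S38A. For inputs of S38D against WT they were -0.29 to 0.056 for MT-ND5 and -0.45 to 0.018 for MT-CYB, and for S38D against S38A -0.067 to 0.26 for MT-ND5 and -0.12 to 0.38 for MT-CO1. ERCC scaling of the last comparison gave MT-ND4 -0.12, MT-ND5 -0.30, MT-CO1 -0.26, MT-CO3 -0.0057, MT-CYB -0.14 and MT-RNR2 -0.093. Counting error was small for all members, and 2 libraries per group limit these comparisons.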
